A study of Homo sapiens with 8 samples.

Results

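SUM159 breast cancer cells that carried an shRNA against FOXO1 and had been held under olaparib were set against the same line with a control shRNA in solvent alone, the ends of a path on which each table of the series covers 1 step. SUM159 is a human line from a triple-negative breast cancer, with mesenchymal features. Olaparib traps and inhibits the DNA repair enzymes PARP1 and PARP2. The untreated control was shCon cells in DMSO for 3 days, the other end was shFoxO1 cells in 10 uM olaparib for 3 days, and shCon cells in 10 uM olaparib for 3 days were the step between. All groups had been infected with lentivirus, per the labels' protocols, and so the control carried an shRNA and the solvent too. Whether the shRNA lines were pools or single clones is not said there. The labels list 2 libraries for each of 4 groups, and the shFoxO1 group held in DMSO was not analysed here. The ends differ in shRNA and in drug at once, so what each contributed cannot be told apart from this contrast alone.

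The genes compared were those with status OK, the authors' mark for a gene with enough reads to test, in both of the 2 deposited tables, 14334 of the 60595 listed (23.7%). FPKM, a fragment count scaled to transcript length and sequencing depth, was given as 1 value per gene and group. The shFoxO1 values were divided by 1.017, the median ratio of the shared shCon olaparib group over 13688 genes, before they were set against the shCon DMSO values of the other table. No replicate spread or depth stands behind such a ratio and no test was made across the tables, so ratios are given as descriptions, and at least 2-fold serves as the mark of size. A ratio could be formed for 14173 genes. Of the other 161 genes, 47 were listed at 0 in both groups, 37 in the untreated control only and 77 in the shFoxO1 olaparib group only, none of these above 13.9 FPKM in the group that had a value. Where a step is quoted with a q-value, it comes from the authors' deposited table of that step, with 0.05 as the limit for a call. Whether libraries of one group came from separate cultures is not stated in the labels, so those q-values may measure technical spread. The steps share the shCon olaparib group, so an error in it moves them in opposite directions, and overlaps of their calls are not counted.

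FOXO1 is a forkhead transcription factor that insulin and AKT signalling keep out of the nucleus, and in many cells it drives genes of cell cycle exit, stress resistance and metabolism. Interferon-stimulated genes are switched on by a complex that holds STAT2 and IRF9 after interferon, or directly by IRF3 when cells sense nucleic acid in the cytosol. ATF4 is a transcription factor made when amino acids run short or the endoplasmic reticulum is stressed, and it drives amino acid synthesis, uptake and tRNA charging. PARP inhibition leaves DNA damage that is repaired by homologous recombination, and ATM and ATR signal it to the damage checkpoints of the cell cycle.

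Most genes stood close to where they had started. Of 14173 genes, 1094 (7.72%) were at least 2-fold higher in shFoxO1 cells under olaparib than in the untreated control, 1383 (9.76%) were at least 2-fold lower, and 11696 (82.5%) lay within 2-fold. At least 4-fold differences were seen for 241 genes upwards and 278 downwards, and at least 8-fold for 65 and 89. With a pseudocount of 1 FPKM, the 2-fold counts were 650 and 782. The median log2 ratio was -0.06, with quartiles of -0.51 and 0.40. The median absolute log2 ratio was 0.46 for the ends of the path, against 0.55 for olaparib in shCon cells and 0.64 for shFoxO1 under olaparib over the same genes. The share of genes within 2-fold was 75.3% for the first of these steps and 69.2% for the second.

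**Figure D1:**
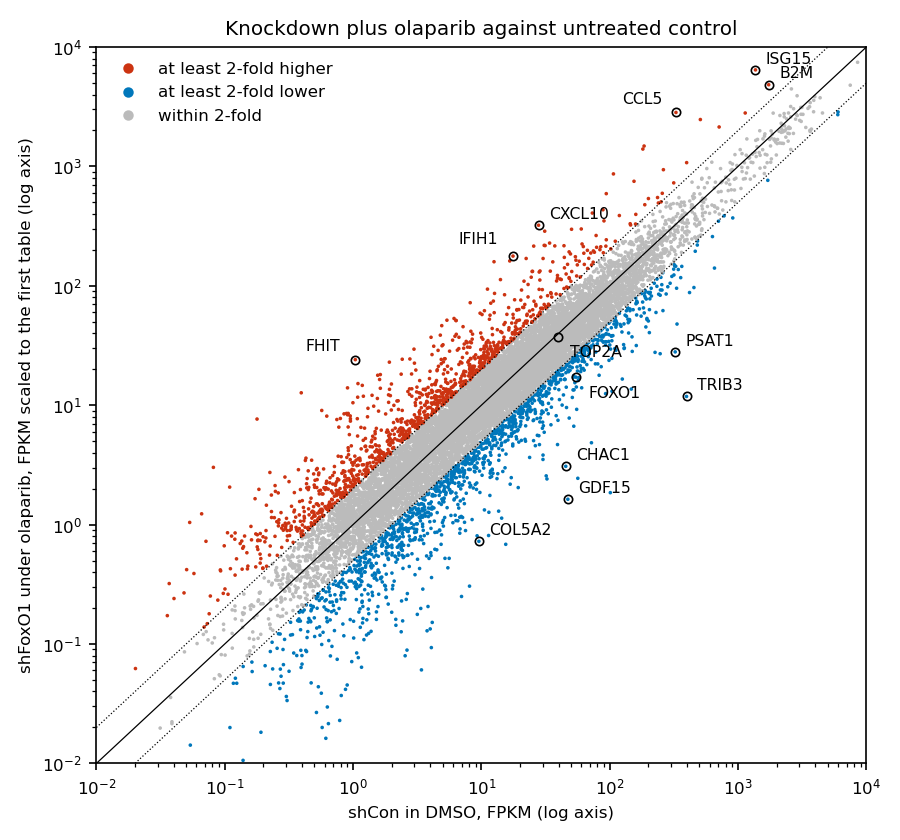
FPKM in shCon cells in DMSO (x axis) and in shFoxO1 cells under olaparib on the same scale (y axis), both log axes, 1 point per gene with both values of at least 0.01. The solid line marks equal values and the dotted lines 2-fold; 1094 genes lie above the upper dotted line or on it and 1383 below the lower one or on it, counting those outside the axes.

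The differences depended on level. Among 1157 genes with a mean under 1 FPKM, 13.8% were at least 2-fold higher and 22.8% lower. Among 4006 genes of 10 to 30 FPKM the shares were 6.02% and 6.44%, and among 1117 genes of at least 100 FPKM they were 5.91% and 7.25%. Long noncoding RNAs of RefSeq numbered 617, with 9.72% at least 2-fold higher and 17.5% lower, but their median level was 2.12 FPKM. Protein-coding genes, 11635 in number with a median of 16.0 FPKM, had 7.13% and 8.59%.

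The genes named in the study's stated purpose ended on different sides. FOXO1 (ENSG00000150907) stood at 54.6 FPKM in the untreated control, 87.7 FPKM in shCon cells under olaparib and 17.2 FPKM in shFoxO1 cells under olaparib. In the authors' deposited tables its olaparib step was not called (q = 0.0966), and its shFoxO1 step was called lower (q = 0.000244). The end value of FOXO1 was 3.18-fold lower than in the untreated control, which fits an shRNA against it. TOP2A, the topoisomerase of dividing cells, was at 39.3, 151 and 37.5 FPKM in the same order, so its end value lay within 1.05-fold of the start. Both steps were called in the authors' deposited tables (q = 0.000284 and q = 0.000244). STAT3, the transcription factor downstream of IL-6 and related cytokines, was at 38.6, 30.4 and 37.4 FPKM and not called in either step. PARP1 was as low at the end as under olaparib alone, with 73.7, 51.1 and 51.8 FPKM. PARP2 was at 26.0, 22.4 and 36.9 FPKM, a log2 ratio of 0.50 between the ends.

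Among lists with at least 5 members compared, interferon-stimulated genes had the largest share of members 2-fold above the untreated level. Of 39 listed, 36 had a status OK in both tables and a ratio, and 31 of these (86.1%, against 7.72% of all genes) were at least 2-fold higher than in the untreated control while none was 2-fold lower. Their median log2 ratio was 2.09, and all 36 lay above 0. In the steps, 18 were called lower and 4 higher with olaparib (median -0.67; 23.8% and 15.8% of all genes), and 30 were called higher with shFoxO1 (median 2.46; 22.6% of all genes). RSAD2, the antiviral enzyme viperin, stood at 31.1 FPKM in the untreated control, 0.541 FPKM in shCon cells under olaparib and 287 FPKM in shFoxO1 cells under olaparib. Its end value was thus 9.21-fold above a start that was itself far above the olaparib value. OAS2, which makes the 2-5A messenger for RNase L, had 25.6, 0.340 and 215 FPKM. IFIT1, which binds foreign RNA ends, had 107, 2.84 and 865 FPKM, and its neighbour IFIT2 had 185, 7.46 and 1481 FPKM. ISG15, the ubiquitin-like modifier, went from 1366 FPKM in the untreated control to 6432 FPKM at the other end, the highest end value of the list. The 5 members within 2-fold were BST2, IFITM2, IFI35, IFITM3 and SP110, with log2 ratios from 0.13 to 0.69. TRIM22, GBP2 and IFI44L were above the untreated level in shCon cells under olaparib already, TRIM22 at 5.52, 14.2 and 13.5 FPKM and IFI44L at 4.51, 14.2 and 19.5 FPKM.

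**Figure D2:**
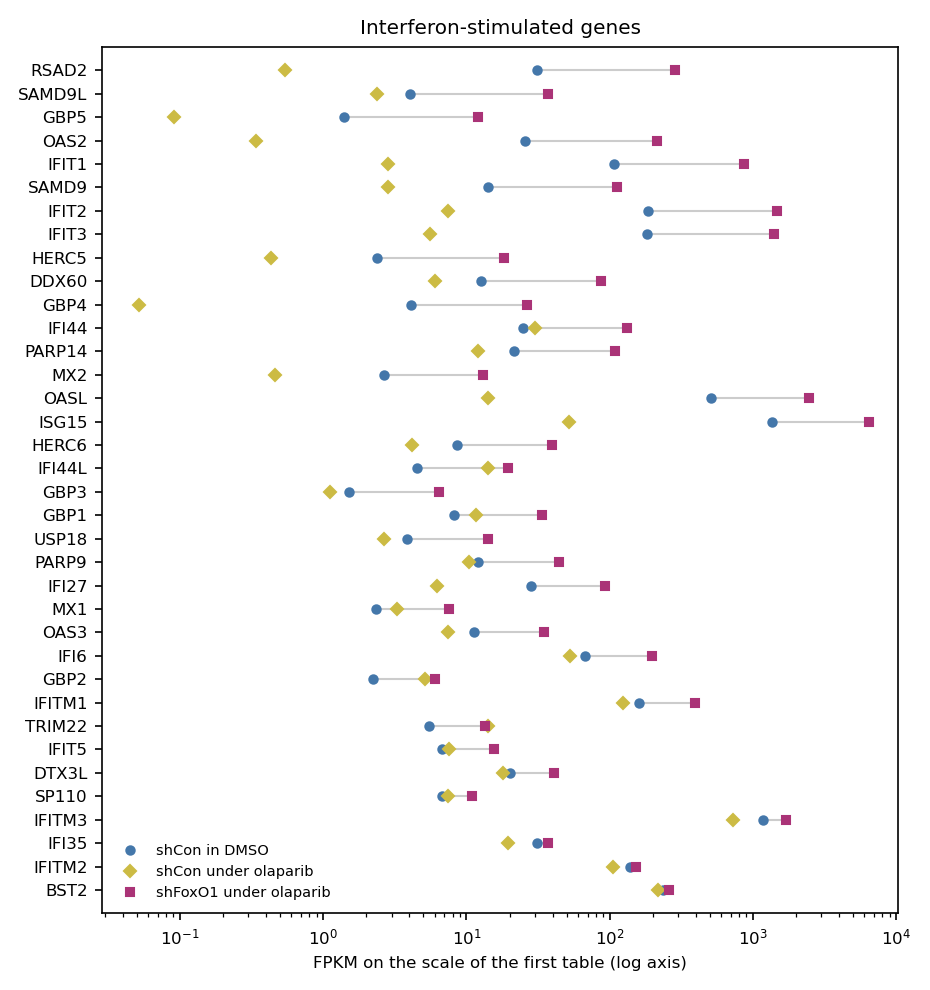
FPKM (log axis) of the 36 interferon-stimulated genes with a ratio, in shCon cells in DMSO (circles), shCon cells under olaparib (diamonds) and shFoxO1 cells under olaparib (squares), ordered by the ratio of the ends, which the grey bar spans. Every square lies to the right of its circle, and for RSAD2 the values are 31.1, 0.541 and 287.

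The promoters of 3 genes with large ratios are shown, since many interferon-stimulated genes carry the interferon-stimulated response element (ISRE) close to their start. The letters searched were GAAA, any 2 bases and GAAA again, on either strand, and matches, which may overlap, are in capitals. The sequences are from RefSeq (GRCh38.p14), 250 bases before to 50 after the annotated start, 5′ to 3′ on the gene's strand, for IFIT1 (chr10:89392373-89392672, plus strand), IFIH1 (chr2:162318635-162318934, minus strand) and CXCL10 (chr4:76023448-76023747, minus strand).
IFIT1: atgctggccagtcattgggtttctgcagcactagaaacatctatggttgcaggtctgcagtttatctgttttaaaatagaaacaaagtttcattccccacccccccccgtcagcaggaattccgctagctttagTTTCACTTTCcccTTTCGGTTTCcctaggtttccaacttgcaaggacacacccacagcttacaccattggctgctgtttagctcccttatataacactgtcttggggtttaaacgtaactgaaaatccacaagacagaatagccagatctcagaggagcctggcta
IFIH1: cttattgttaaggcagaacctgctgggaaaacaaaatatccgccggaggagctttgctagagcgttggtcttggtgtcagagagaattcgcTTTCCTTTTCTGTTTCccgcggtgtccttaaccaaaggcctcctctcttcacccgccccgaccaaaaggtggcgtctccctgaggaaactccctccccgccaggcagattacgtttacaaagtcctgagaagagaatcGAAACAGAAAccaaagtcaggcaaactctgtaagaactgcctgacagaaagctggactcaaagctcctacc
CXCL10: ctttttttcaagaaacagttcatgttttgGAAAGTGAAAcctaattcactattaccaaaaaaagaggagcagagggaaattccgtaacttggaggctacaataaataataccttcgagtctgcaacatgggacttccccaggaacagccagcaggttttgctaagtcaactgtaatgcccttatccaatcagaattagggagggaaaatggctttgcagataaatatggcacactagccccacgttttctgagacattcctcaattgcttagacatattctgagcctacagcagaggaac
IFIT1 had 2 matches, beginning 116 and 103 bases before the start. IFIH1 had 3, of which those beginning 159 and 153 bases before the start overlap, and the last begins 21 bases before it. CXCL10 had 1, beginning 221 bases before the start. Of 27 interferon-stimulated genes with a ratio that were matched by symbol to a promoter, 21 (77.8%) held such a match, against 3.65% of 27305 promoters of the same length and 3.05% of the 9835 that belong to genes with a ratio. Among matched genes at least 4-fold higher than in the untreated control the share was 20.3% of 133, and among those at least 4-fold lower 3.18% of 157. These letters describe the windows and do not show binding.

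The sensors and signal proteins that lead to those genes were partly higher. Of 19 genes of nucleic acid sensing with a ratio, 8 (42.1%, against 7.72% of all genes) were at least 2-fold above the untreated control. Another 1 (5.26%, against 9.76%) was 2-fold lower. IFIH1, the RNA sensor MDA5, had 17.6 FPKM in the untreated control, 3.17 in shCon cells under olaparib and 177 in shFoxO1 cells under olaparib, a 10.1-fold higher end. DDX58, the RNA sensor RIG-I, had 22.3, 1.21 and 169 FPKM, and DHX58, their relative LGP2, had 20.6, 9.29 and 92.1 FPKM. On the DNA side the sensor CGAS was at 12.7, 10.6 and 10.4 FPKM, and its partner TMEM173, which encodes STING, was the member at least 2-fold lower, with 8.72, 11.7 and 3.95 FPKM. AIM2, a DNA sensor of inflammasomes, was at 4.60, 0.0328 and 28.8 FPKM, but neither step was called in the authors' deposited tables (q = 0.388 and q = 0.367).

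Among 20 interferons, receptors and signal proteins with a ratio, 8 (40.0%, against 7.72% of all genes) were at least 2-fold higher. The type I interferon IFNB1 was listed at 0 in all 3 groups. The type III interferon IFNL1 had 1.45 FPKM in the untreated control, was listed at 0 in shCon cells under olaparib and had 9.81 FPKM at the other end. STAT2 and IRF9, partners in the factor that binds the ISRE, were at 25.7, 45.0 and 74.2 FPKM and at 11.0, 6.09 and 31.1 FPKM. The feedback inhibitors SOCS1 and USP18 ended 3.49-fold and 3.67-fold higher, while SOCS3, which STAT3 induces, ended lower, at 6.46 against 10.7 FPKM. The median log2 ratio of this list was 0.77, but -0.027 over the members whose listed region no other gene shares.

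Chemokines ended on both sides of their start. Of 21 listed, 12 had a ratio. Of these, 7 (58.3%, against 7.72% of all genes) were at least 2-fold higher than in the untreated control. Another 2 (16.7%, against 9.76%) were 2-fold lower, and the median log2 ratio was 2.203. Over the members whose listed region no other gene shares, an alternative added after seeing the data, the median was 0.60. CCL5, which draws T cells and monocytes, had 328 FPKM in the untreated control, 0.836 FPKM in shCon cells under olaparib and 2829 FPKM in shFoxO1 cells under olaparib, an 8.62-fold higher end. CXCL10 and CXCL11, ligands of CXCR3, had 27.9, 0.0475 and 322 FPKM and 12.5, 0.0705 and 159 FPKM. Neither gene was called in either step in the authors' deposited tables (q from 0.170 to 0.277), in spite of the size of the steps. CCL3 had 16.6 FPKM, was listed at 0 under olaparib with shCon, and had 161 FPKM at the end; its near-identical copy CCL3L1 shares sequence with it, so the split between them is uncertain. The neutrophil chemokines, named after their values were seen, ended above or below their start. CXCL2 stood at 14.2, 2.15 and 6.90 FPKM and CXCL3 at 7.71, 0.999 and 4.39 FPKM, both below the untreated control at the end, and CXCL8 at 20.3, 0.358 and 30.7 FPKM. CXCL12, the ligand of CXCR4, had the opposite shape, with 1.68, 16.1 and 0.683 FPKM.

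Other inflammatory genes were higher in part. Of 12 cytokines with a ratio, 5 (41.7%, against 7.72% of all genes) were at least 2-fold higher. Among them were IL6 at 11.2, 0.125 and 93.8 FPKM and the granulocyte factor CSF3 at 3.08 FPKM, 0 as listed and 19.7 FPKM. IL15, which sustains NK cells, was at 4.12 and 4.20 FPKM in shCon cells without and with olaparib and at 12.8 FPKM with shFoxO1. Of 17 NF-kB subunits and feedback targets with a ratio, 6 (35.3%, against 7.72%) were at least 2-fold higher. Another 2 (11.8%, against 9.76% of all genes) were 2-fold lower, and the median log2 ratio was 0.38. The inhibitor of apoptosis BIRC3 had 94.0, 4.58 and 591 FPKM, and the deubiquitinase TNFAIP3 had 44.3, 8.82 and 173 FPKM. The subunits themselves were not among the high ones: NFKB1 stood at 58.2, 24.8 and 29.0 FPKM, RELA at 77.4, 33.5 and 62.4 FPKM and RELB at 43.2, 11.1 and 29.1 FPKM. NFKB1 and TNFAIP2, at 38.2, 1.42 and 15.03 FPKM, were the members at least 2-fold lower than in the untreated control.

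**Figure D3:**
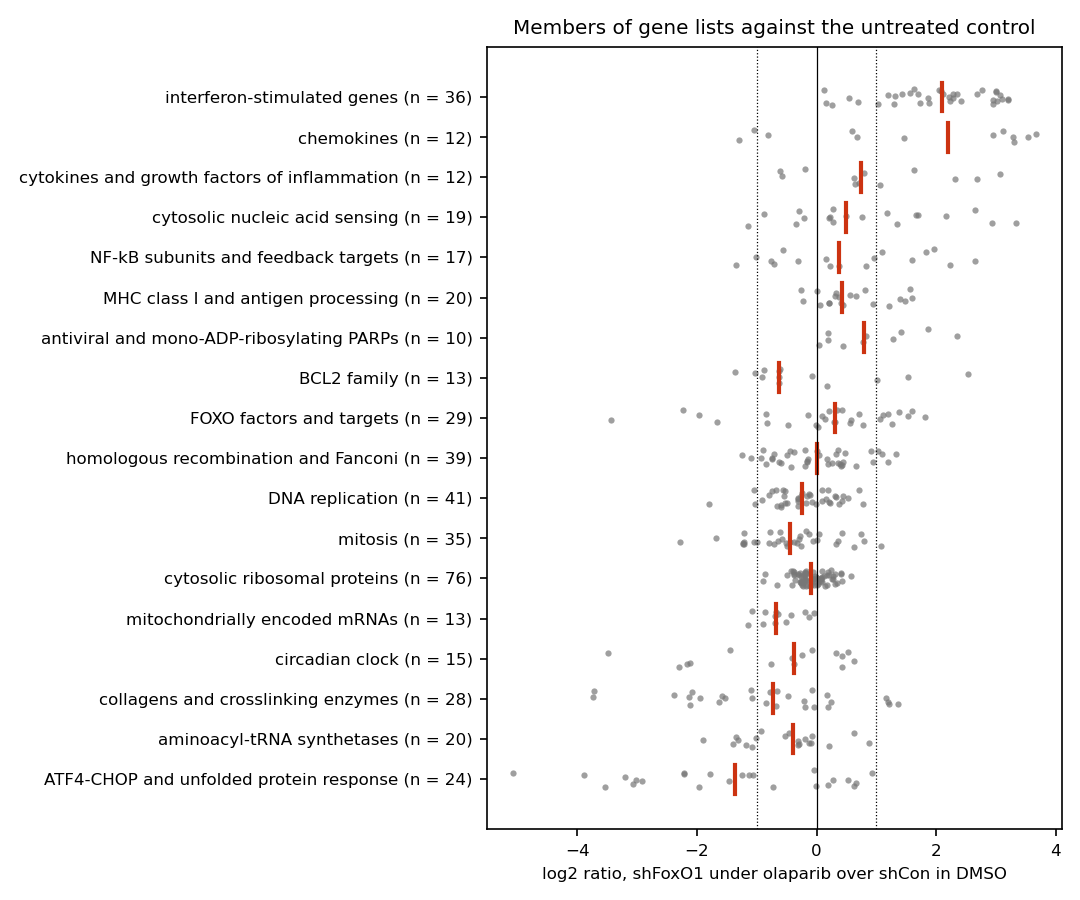
Log2 ratio of shFoxO1 cells under olaparib over shCon cells in DMSO (x axis) for the members with a ratio of 18 gene lists, 1 grey point per gene with random vertical offset, red bars at the median. Dotted lines mark 2-fold; the medians run from 2.203 for chemokines to -1.36 for the ATF4-CHOP and unfolded protein response genes.

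Genes that show the cell to lymphocytes were moderately higher. All 20 genes of MHC class I and antigen processing had a ratio. Of these, 5 (25%, against 7.72% of all genes) were at least 2-fold higher and none 2-fold lower, with 18 above 0 and a median of 0.42. B2M, the light chain of MHC class I, had 1732, 1259 and 4831 FPKM, HLA-B had 257, 243 and 595 FPKM, and the peptide trimming enzyme ERAP2 had 10.9, 11.8 and 32.8 FPKM. Among 12 checkpoint and NK ligands, CD276, a B7 family member, ended 3.26-fold higher (119, 39.7 and 388 FPKM) and PDCD1LG2, which encodes PD-L2, 2.15-fold higher. CD274, which encodes PD-L1, was back near its start at 4.90, 0.675 and 4.42 FPKM. The NKG2D ligands differed among themselves: ULBP1 ended at 0.143 FPKM against 2.16 FPKM, and ULBP3 ended 3.21-fold higher at 12.5 FPKM against 3.90 FPKM. RAET1L, a member of the same ligand family, was 9.88-fold higher at 29.5 FPKM against 2.98 FPKM.

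PARPs of the antiviral and mono-ADP-ribosylating kind lay on the same side. All 10 with a ratio were above the untreated level, the lowest by 0.04 on the log2 scale. Of these, 4 (40.0%, against 7.72% of all genes) were at least 2-fold higher. PARP14 had 21.5, 12.1 and 109 FPKM, its neighbour PARP9 12.1, 10.3 and 43.9 FPKM, and the RNA-binding protein ZC3HAV1, known as ZAP, 79.0, 14.4 and 210 FPKM. Of the 14 PARPs of DNA damage and genes of ADP-ribose turnover with a ratio, none was at least 2-fold higher. With 14 genes, that is close to the 7.72% of all genes, and 1 (7.14%, against 9.76%) was 2-fold lower. The lower one was MACROD1, a hydrolase of ADP-ribose marks, with 52.4, 32.4 and 24.2 FPKM. Neither of its steps was called in the authors' deposited tables (q = 0.171 and q = 0.493). The PARP1 cofactor HPF1 was at 21.2, 19.3 and 40.5 FPKM.

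Death genes were mixed. Of 13 BCL2 family members with a ratio, 3 (23.1%, against 7.72% of all genes) were at least 2-fold higher. Another 2 (15.4%, against 9.76%) were 2-fold lower, and the median was -0.62. PMAIP1, which encodes the death protein NOXA, had 37.3, 6.205 and 216 FPKM, and its binding partner MCL1, which protects cells, had 251, 109 and 505 FPKM. BCL2L11, which encodes BIM, had 3.75, 4.66 and 10.8 FPKM. BCL2 itself ended at least 2-fold lower, with 3.12, 8.23 and 1.21 FPKM. The death receptor FAS had 10.0, 5.59 and 37.0 FPKM.

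Genes of amino acid stress had the largest share 2-fold below the untreated level among lists with at least 5 members compared. Of 24 genes of the ATF4-CHOP and unfolded protein response with a ratio (25 listed), 15 (62.5%, against 9.76% of all genes) were at least 2-fold lower than in the untreated control and none was 2-fold higher, with a median log2 ratio of -1.36. Olaparib in shCon cells had 16 members called lower and 1 higher (median -0.93; 23.8% and 15.8% of all genes), and shFoxO1 under olaparib had 14 called lower and 6 higher (median -0.80; 20.1% and 22.6% of all genes). TRIB3, a pseudokinase induced by ATF4, was at 397 FPKM in the untreated control, 113 FPKM in shCon cells under olaparib and 11.8 FPKM in shFoxO1 cells under olaparib, 33.5-fold lower at the end. Both of its steps were called lower in the authors' deposited tables (q = 0.000284 and q = 0.000244). CHAC1, which degrades glutathione, had 45.4, 7.87 and 3.08 FPKM, and CTH, which makes cysteine, had 39.2, 18.9 and 4.68 FPKM. ASNS, asparagine synthetase, had 225, 81.6 and 27.7 FPKM. ATF4 itself was at 481, 435 and 220 FPKM, and DDIT3, which encodes CHOP, at 82.6, 68.5 and 17.8 FPKM. HERPUD1, which serves protein disposal at the endoplasmic reticulum, was at 102 FPKM at the start and 29.5 FPKM at the end. Chaperones of the endoplasmic reticulum and XBP1, which drives them, lay within 2-fold. The chaperone HSPA5 stood at 127, 118 and 127 FPKM, XBP1 at 253, 88.1 and 246 FPKM and the co-chaperone DNAJB9 at 9.40, 7.11 and 17.8 FPKM.

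**Figure D4:**
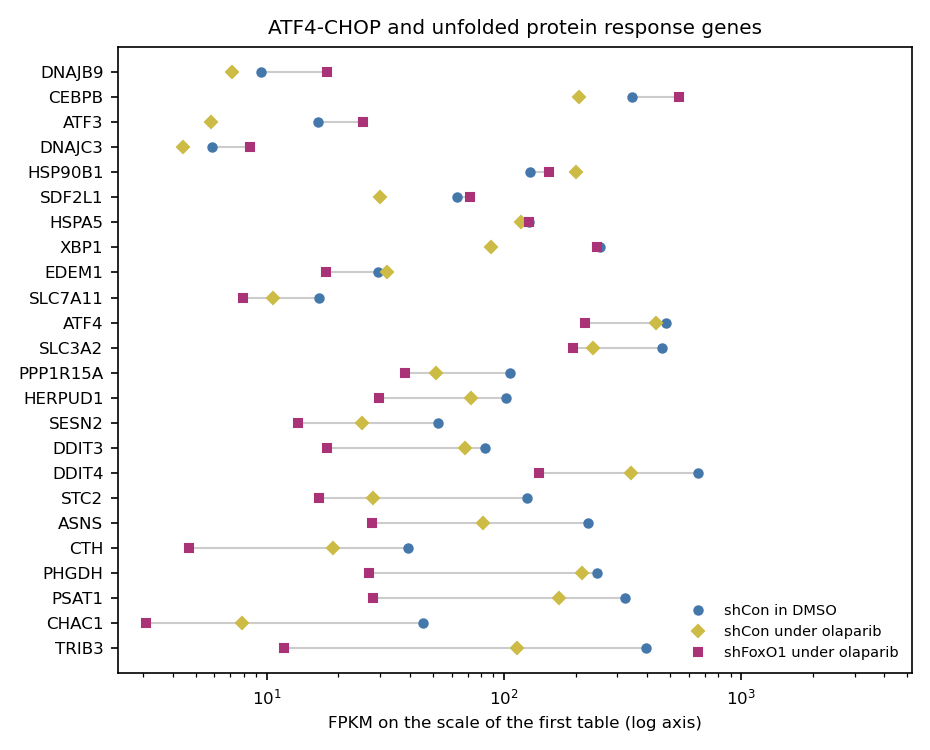
FPKM (log axis) of the 24 genes of the ATF4-CHOP and unfolded protein response with a ratio, in shCon cells in DMSO (circles), shCon cells under olaparib (diamonds) and shFoxO1 cells under olaparib (squares), ordered by the ratio of the ends, which the grey bar spans. For the 15 genes from TRIB3 to SLC7A11 the square lies at least 2-fold left of the circle, and the other 9, from EDEM1 to DNAJB9, lie within 2-fold.

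The promoters of CHAC1 (chr15:40953221-40953520, plus strand) and ASNS (chr7:97872359-97872658, minus strand) are shown because each holds the composite element that ATF4 and C/EBP proteins are known to bind. The letters searched were TGATGNAA on either strand, in capitals, in RefSeq sequence of GRCh38.p14 over the same window.
CHAC1: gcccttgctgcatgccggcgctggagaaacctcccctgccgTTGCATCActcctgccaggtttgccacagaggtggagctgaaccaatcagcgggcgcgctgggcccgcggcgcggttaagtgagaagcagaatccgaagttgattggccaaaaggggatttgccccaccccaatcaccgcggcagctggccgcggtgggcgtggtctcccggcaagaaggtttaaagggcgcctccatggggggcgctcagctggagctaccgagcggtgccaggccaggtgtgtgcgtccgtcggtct
ASNS: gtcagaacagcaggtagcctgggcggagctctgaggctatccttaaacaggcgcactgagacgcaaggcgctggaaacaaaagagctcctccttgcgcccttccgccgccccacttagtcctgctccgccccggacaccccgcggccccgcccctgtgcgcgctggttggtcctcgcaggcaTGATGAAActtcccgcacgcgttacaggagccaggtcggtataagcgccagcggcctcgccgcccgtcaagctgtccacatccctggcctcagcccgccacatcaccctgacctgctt
The match began 209 bases before the start in CHAC1 and 68 bases before it in ASNS. Of 23 members of that list with a ratio and a promoter, 5 (21.7%) held such a match, against 3.67% of all 27305 promoters and 1.69% of those of genes with a ratio. Among genes at least 4-fold higher and 4-fold lower the shares were 3.76% of 133 and 3.82% of 157.

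Enzymes of serine and glycine synthesis were lower, in part the same genes as in the ATF4-CHOP list. PHGDH and PSAT1, the enzymes that open the serine pathway, had 247, 213 and 27.0 FPKM and 324, 171 and 27.9 FPKM. Both were counted in the ATF4-CHOP list already. A list of 17 serine, glycine and folate enzymes was written after these values had been seen. Of 14 with a ratio, 7 (50%, against 9.76% of all genes) were at least 2-fold lower and none higher. Among them SHMT2 had 283, 178 and 98.2 FPKM and MTHFD2 had 241, 161 and 85.0 FPKM. Of 18 amino acid transporters with a ratio, a list also written afterwards, 8 (44.4%, against 9.76%) were at least 2-fold lower. Another 1 (5.56%, against 7.72% of all genes) was 2-fold higher. SLC7A11 and SLC3A2, among the lower transporters, belong to the ATF4-CHOP list too, so the shares of these lists are not separate results. SLC7A5, the leucine transporter, had 334, 115 and 47.8 FPKM, SLC1A5, the glutamine transporter, had 419, 186 and 87.8 FPKM, and SLC1A4, a serine and alanine transporter, had 11.4, 3.57 and 0.810 FPKM. SLC38A9, the lysosomal arginine sensor of mTORC1, was the one higher, at 13.1, 10.8 and 30.6 FPKM. Cytosolic aminoacyl-tRNA synthetases, 20 with a ratio, had 7 (35.0%, against 9.76% of all genes) at least 2-fold lower and none higher. AARS was at 195, 162 and 52.2 FPKM, but MARS, at 205, 76.5 and 77.8 FPKM, and CARS, at 121, 67.0 and 47.5 FPKM, showed most of the difference already in shCon cells under olaparib. WARS, which interferon is known to induce, had 226, 75.5 and 349 FPKM. PCK2, the mitochondrial PEP carboxykinase, had 147, 70.5 and 13.6 FPKM. GDF15 and NUPR1, stress genes that ATF4 is known to drive, had 47.2, 18.7 and 1.63 FPKM and 32.0, 15.3 and 2.56 FPKM.

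**Figure D5:**
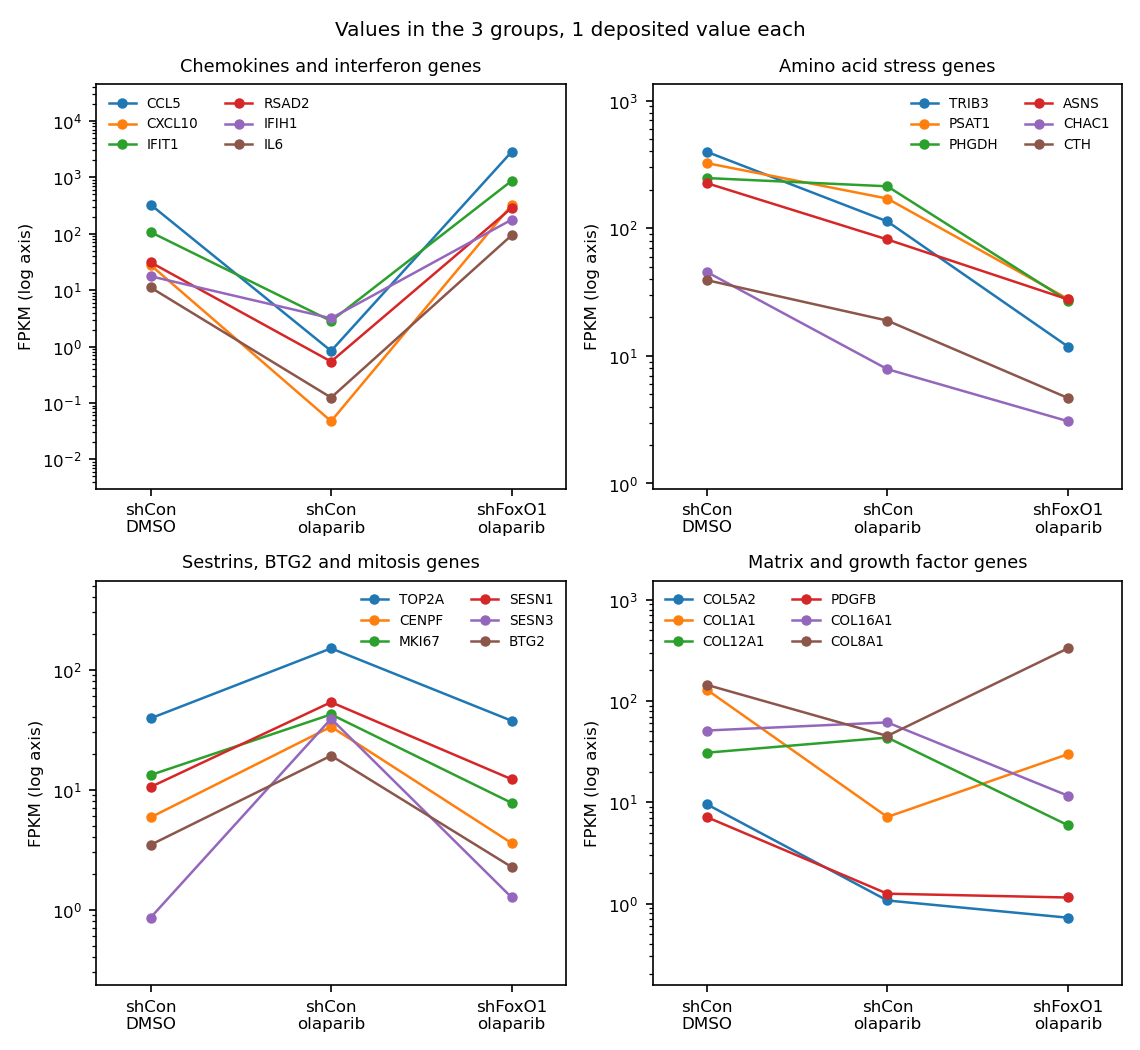
FPKM (log axis) of 24 genes in shCon cells in DMSO, shCon cells under olaparib and shFoxO1 cells under olaparib, 1 deposited value each, joined by lines for reading only. CCL5 ran 328, 0.836 and 2829, TRIB3 397, 113 and 11.8, TOP2A 39.3, 151 and 37.5, and COL5A2 9.56, 1.07 and 0.724.

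Genes of mitosis ended somewhat below their start. Of 35 members with a ratio, 9 (25.7%, against 9.76% of all genes) were at least 2-fold lower than in the untreated control, 1 was 2-fold higher and 25 lay within 2-fold, with a median log2 ratio of -0.45. In the steps, 23 were called higher with olaparib and none lower (median 0.59; 15.8% and 23.8% of all genes), and 28 were called lower with shFoxO1 under olaparib and none higher (median -1.11; 20.1% and 22.6% of all genes). The centromeric histone CENPA had 27.3, 34.6 and 5.59 FPKM, survivin (BIRC5) had 63.2, 90.5 and 19.7 FPKM, and UBE2C, the E2 of the anaphase-promoting complex, had 144, 195 and 61.9 FPKM. PLK1 was at 103, 91.2 and 44.5 FPKM. The proliferation antigen MKI67 was at 13.2, 42.4 and 7.76 FPKM. TTK, the spindle checkpoint kinase MPS1, was the member at least 2-fold higher, with 6.91, 23.5 and 14.5 FPKM. The promoter of TOP2A (chr17:40417847-40418146, minus strand) is shown as that of a gene with a large value under olaparib alone. Capitals mark the cell cycle homology region (CHR), TTTGAA on either strand, which the DREAM complex and B-MYB are known to bind.
TOP2A: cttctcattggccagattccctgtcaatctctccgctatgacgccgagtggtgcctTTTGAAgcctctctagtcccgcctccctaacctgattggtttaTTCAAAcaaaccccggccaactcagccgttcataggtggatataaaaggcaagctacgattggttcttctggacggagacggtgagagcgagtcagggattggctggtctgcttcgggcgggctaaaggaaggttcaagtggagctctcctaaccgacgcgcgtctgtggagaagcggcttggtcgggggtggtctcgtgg
It held 2 matches, beginning 194 and 151 bases before the start. Of 30 mitosis genes with a promoter, 23 (76.7%) held this short motif, against 15.4% of all promoters and 9.49% of those of genes with a ratio. Among matched genes at least 4-fold higher than in the untreated control the share was 17.3% of 133. For those at least 4-fold lower it was 10.2% of 157.

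Replication and repair genes are read against the 7.72% of all genes that were at least 2-fold higher and the 9.76% that were lower. Of 41 DNA replication genes, 3 (7.32%) were at least 2-fold lower and none higher, with a median of -0.25: thymidine kinase TK1 at 140, 141 and 40.2 FPKM, TYMS at 72.7, 105 and 35.2 FPKM and GINS2 at 9.52, 11.2 and 4.65 FPKM. Of 39 genes of homologous recombination and the Fanconi pathway, 4 (10.3%) were at least 2-fold higher and 2 (5.13%) were 2-fold lower, with a median of 0.00. CHEK2, the checkpoint kinase downstream of ATM, had 34.7, 32.9 and 87.5 FPKM, and the helicase BRIP1 had 3.03, 8.60 and 6.95 FPKM. FANCE had 23.4, 25.4 and 9.89 FPKM, and RAD51D 10.8, 9.66 and 5.03 FPKM. Of 17 end joining genes 1 was at least 2-fold higher, the shieldin subunit SHLD3, at 3.15, 3.59 and 7.85 FPKM. Neither step of SHLD3 was called in the authors' deposited tables (q = 0.907 and q = 0.338). The cell cycle factors E2F1 and E2F2 ended lower, at 23.5, 33.4 and 9.12 FPKM and at 7.38, 15.6 and 2.71 FPKM. Replication-dependent histones had 23 of 51 listed members with a ratio, 9 (39.1%) at least 2-fold higher and 4 (17.4%) lower. HIST1H2BD was at 4.91, 13.1 and 46.4 FPKM and HIST1H2AC at 6.37, 13.3 and 39.2 FPKM, though near-identical histone copies may share reads and single values are uncertain.

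FOXO factors and targets did not end on one side. Of 29 with a ratio, 8 (27.6%, against 7.72% of all genes) were at least 2-fold higher. Another 4 (13.8%, against 9.76%) were 2-fold lower: PCK2, EIF4EBP1, SESN2 and FOXO1 itself, which the shRNA targets. The median was 0.31, with 20 members above the untreated level and 9 below it. The sestrins, stress-induced brakes on mTORC1, differed among themselves. SESN2 had 52.7, 25.2 and 13.4 FPKM, and both steps were called lower in the authors' deposited tables (q = 0.000284 and q = 0.000244). SESN1 and SESN3 were high in shCon cells under olaparib alone, at 10.5, 53.6 and 12.2 FPKM and at 0.857, 39.0 and 1.26 FPKM. CCNG2, an inhibitory cyclin, and RBL2, a relative of the retinoblastoma protein, had the same shape, at 7.77, 33.6 and 9.51 FPKM and at 18.7, 42.8 and 19.8 FPKM. KLF2 and KLF4 had the reverse shape, at 16.3, 4.21 and 34.1 FPKM and at 50.6, 20.6 and 132 FPKM. RICTOR, the defining subunit of mTORC2, had 4.42, 7.02 and 15.5 FPKM. FOXO3, a relative of FOXO1, had 24.9, 38.6 and 42.7 FPKM. BTG2, an antiproliferative gene, was at 3.47, 19.2 and 2.27 FPKM.

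Matrix genes ended low. Of 28 collagens and crosslinking enzymes with a ratio, 12 (42.9%, against 9.76% of all genes) were at least 2-fold lower. Another 4 (14.3%, against 7.72%) were 2-fold higher, and the median was -0.74. The paths differed. COL5A2 was at 9.56, 1.07 and 0.724 FPKM, low from olaparib on, and its second step was not called (q = 0.412). COL1A1, at 129, 7.16 and 29.8 FPKM, was lowest in shCon cells under olaparib. It was called higher with shFoxO1 in the authors' deposited table (q = 0.000244) but stayed below its start. COL12A1, at 30.9, 43.5 and 5.93 FPKM, and COL16A1, at 51.1, 61.4 and 11.6 FPKM, were below their start in shFoxO1 cells under olaparib and not in shCon cells under olaparib. The members higher at the end were COL4A1, COL4A2, COL8A1 and LOXL3, with log2 ratios from 1.16 to 1.36. Of 22 integrins and laminins, 6 (27.3%, against 7.72% of all genes) were at least 2-fold higher and 1 (4.55%, against 9.76%) lower. Among the higher ones were the collagen receptor subunit ITGA2 (28.5, 8.32 and 112 FPKM) and the fibronectin receptor subunit ITGA5 (200, 77.1 and 538 FPKM). ITGA11, another collagen receptor subunit, was the member 2-fold lower, at 5.995, 0.811 and 1.04 FPKM. The clock list had 5 of 15 members (33.3%, against 9.76% of all genes) at least 2-fold lower, PER3, TEF, HLF, BHLHE41 and NR1D1. TEF, a PAR bZIP factor, was at 7.37, 18.0 and 1.498 FPKM, and NR1D1, the repressor REV-ERB alpha, at 24.1, 38.6 and 8.84 FPKM.

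Ribosomal protein genes and mitochondrial mRNAs differed in their medians. None of 76 cytosolic ribosomal protein genes was past 2-fold higher or lower, against 7.72% and 9.76% of all genes. Their log2 ratios ran from -0.89 to 0.57, with a median of -0.09. All 13 mitochondrially encoded mRNAs lay below the untreated level, with log2 ratios from -1.14 to -0.05 and a median of -0.67. Of these, 2 (15.4%, against 9.76% of all genes) were at least 2-fold lower. MT-CO3, a subunit of cytochrome oxidase, had 6013, 6280 and 2858 FPKM, whereas MT-ND4 had 3964, 3897 and 3838 FPKM, a log2 ratio of -0.05 that is smaller than the -0.06 of the median gene.

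The 15 genes with the largest upward ratio between the ends, among protein-coding genes with at least 10 FPKM in either, were FHIT, KLRD1, CXCL11, XAGE1B, CXCL10, CLTRN, ANGPTL1, HCAR3, IFIH1, HCAR2, CX3CL1, RAET1L, CCL3, CCL3L1 and HIST1H2BD, with log2 ratios from 4.53 down to 3.24. FHIT, a tumour suppressor at a fragile site of chromosome 3, was at 1.04 FPKM in the untreated control, 11.2 FPKM in shCon cells under olaparib and 24.1 FPKM in shFoxO1 cells under olaparib, 23.1-fold higher at the end. Unlike most of these genes, FHIT was above its start under olaparib alone. In the authors' deposited tables the shFoxO1 step of FHIT was not called (q = 0.240). ANGPTL1 was called in neither step (q = 0.232 and q = 0.101). HCAR2, the receptor for niacin and ketone bodies, and its near-identical neighbour HCAR3 had 2.42, 0.235 and 24.3 FPKM and 1.61, 0.237 and 16.4 FPKM. On the log2(FPKM + 1) scale the 15 ratios ran from 2.55 to 3.62, since several starts were near 1 FPKM. The 15 genes with the largest downward ratio were BOLA2B, TRIB3, GDF15, UNC5B, SLX1B, SULT1E1, CHAC1, SLC1A4, CCN5, U2AF1L5, NUPR1, PSAT1, PCK2, PARM1 and CIDEC, with log2 ratios from -5.77 to -3.25. BOLA2B, SLX1B and U2AF1L5 have near-identical copies elsewhere in the genome, so their values are uncertain. UNC5B, a netrin receptor, had 56.4, 45.45 and 2.44 FPKM, and SULT1E1, the oestrogen sulfotransferase, had 72.0, 135 and 4.85 FPKM. CIDEC, a lipid droplet protein, had 19.4, 144 and 2.04 FPKM.

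Some genes ended where they had started. Among protein-coding genes with at least 10 FPKM in a group that were called in both of the authors' deposited tables and ended within 0.1 of the untreated level on the log2 scale, the 10 with the largest olaparib step were LCP1, AREG, AEN, COL7A1, PDLIM3, SLCO1B3, IFT80, HIST1H3H, ALDH6A1 and STOML1. AREG, the EGF receptor ligand amphiregulin, had 38.3, 4.004 and 40.3 FPKM, and IFT80, a ciliary transport protein, had 5.69, 26.2 and 5.93 FPKM. Protein-coding genes at least 4-fold from the untreated level, called with olaparib in the authors' deposited table and within 0.25 of that olaparib level in the second step on the log2 scale, included TMEM232, ZNF20, PDGFB, HIST1H3E and CRIP2. No minimum level was set for these genes. TMEM232, ZNF20 and HIST1H3E started at 0.0533, 0.247 and 0.766 FPKM and ended at 1.04, 2.12 and 3.74 FPKM, so their ratios rest on low values. PDGFB, a growth factor for stromal cells, had 7.14, 1.25 and 1.15 FPKM. Among protein-coding genes with at least 10 FPKM in a group that were called in the same direction in both of the authors' deposited tables, the 10 with the largest ratio between the ends held TRIB3, GDF15, CHAC1, SLC1A4, CCN5, NUPR1, PSAT1 and PCK2 on the low side and XAGE1B and HIST1H2BD on the high side. These sets were chosen by their values and by calls that share a group, and carry no test.

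Markers of other cell types were mostly low at both ends, and bulk RNA cannot tell fewer cells of a type from less RNA per cell. Of 12 leukocyte markers, CD3D, MS4A1, LYZ and NKG7 were listed at 0 in all 3 groups, PTPRC was at 1.34 FPKM in the untreated control and listed at 0 in shFoxO1 cells under olaparib, and CD68, a lysosomal protein that other cells make too, had 18.2, 14.9 and 39.3 FPKM. Of 8 endothelial markers, KDR had a ratio, at 5.23, 0.379 and 2.57 FPKM, while PECAM1 was at 0.0870 and 1.76 FPKM and ESAM at 0.323 and 2.39 FPKM at the ends. Both were called higher with shFoxO1 in the authors' deposited table (q = 0.00396 and q = 0.00380). Markers of the line itself were mixed. The mesenchymal marker VIM was at 2456, 2446 and 1627 FPKM, all 10 mesenchymal markers were measured with 1 at least 2-fold lower (AXL, at 94.2, 86.0 and 33.9 FPKM), and CDH1, PGR and TFF1 were listed at 0. Of 13 luminal markers, others were present: KRT8 was at 255, 326 and 92.1 FPKM, and the untreated control had 213 FPKM of KRT18, 253 of XBP1, 25.3 of ERBB2 and 15.01 of GATA3. Which library went to which of the 2 sequencing providers named in the protocol is not said, so a provider cannot be told apart from a group.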

How the data were processed

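RNA of SUM159 cells was measured by ribosomal RNA depletion and directional paired-end sequencing, per the labels' protocols. The submitters' processing notes list hg38 as the build, with the tools HISAT2 2.1.0, Cufflinks 2.2.1 and CASAVA 1.4. The authors deposited 2 comparison tables with 1 FPKM value per gene and group, a q-value (an adjusted p-value) per gene and a status, per the file headers. FPKM depends on transcript length models and on which RNAs take up the reads, and how reads of overlapping genes were divided is not given in the sources used here. Depth is unknown, since no counts were used here.

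The tables were joined on the gene ID with Python 3.11.15 and pandas 2.3.3. The shFoxO1 olaparib values were divided by 1.017 (the lowest and highest percentile of the single-gene ratios behind that median were 1.015 and 1.019), and log2 ratios to shCon DMSO were formed without a pseudocount where neither value was 0. The steps were checked on simulated tables with a known scale and known changes. Of the genes with a ratio, 90.2% matched RefSeq (GRCh38.p14) by symbol or synonym, and 72.0% were listed with a region that another gene shares. Symbols that spreadsheet software had turned into dates (18 of the genes compared) were counted and not named. No column of other samples was left out (0). The members and the 50 gene lists were chosen with earlier results of these data known, and 2 further lists were added after the values were seen.

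The rule for naming genes took PARP1, PARP2, TOP2A, STAT3 and FOXO1; 15 genes for each direction by ratio, with at least 10 FPKM in either end; the sets described as back at the start, kept, or the same way in both steps; and up to 4 members of each list described by the largest difference in log2(FPKM + 1). Other list members were named after their values were seen, as were the genes whose promoters are printed. A few results are not reported here.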

Additional observations from a re-analysis of the deposited data

How the results depend on the processing

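No paired analysis was possible because each group has 1 deposited value, and for the same reason no replicate could be left out. A value counted as changed where it moved by over 1.5 times. The number of genes at least 2-fold higher and lower was 1094 and 1383. It was 650 and 782 with a pseudocount of 1, 540 and 618 among genes of at least 10 FPKM in either end, and 420 and 498 past 3-fold. Without the status filter, at 1 FPKM in both, 918 were lower. Among genes with a region of their own, an alternative chosen after seeing the data, there were 358 and 396. The filters on level, status and region leave other or fewer genes. The median of all genes changed under no alternative run. Of the list medians at 10 FPKM, chemokines came to 3.19, cytokines to 1.63, keratins to -0.72 and histones to 1.64. IGF binding proteins came to -0.038 without the status filter. Among genes with a region of their own, the medians were -0.027 for interferons and signal proteins, 1.18 for nucleic acid sensing, 0.60 for chemokines, 1.10 for checkpoint ligands, -0.30 for IGF binding proteins and 0.48 for YAP-TAZ targets. The medians of interferon-stimulated genes and of the ATF4-CHOP list ranged from 1.91 to 2.24 and from -1.47 to -1.27 over the alternatives run. No value past 2-fold changed sign. Of the medians listed, those of keratins, interferons and signal proteins, and YAP-TAZ targets changed sign, all from within 2-fold. Of the values of single named genes over the alternatives, 17 changed and 343 did not. Depth is unknown, so values near 0 carry an error that cannot be given.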

Other observations

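For genes whose mean over both ends reached 1 FPKM, the median log2 ratio between the ends differed by chromosome. It was -0.29 for 805 genes of chromosome 19, -0.25 for 573 of chromosome 16 and -0.24 for 298 of chromosome 22. At the other end it was 0.12 for 217 genes of chromosome 13, 0.10 for 403 of chromosome 14 and 0.09 for 565 of chromosome 5. By genomic span, cut into 5 groups of like size, the shortest protein-coding genes (median 5.39 kb) had a median of -0.20, against 0.08 in group 4 (60.9 kb) and 0.02 in the longest (157 kb). The same groups had medians of -0.39, -0.05 and 0.05 for olaparib in shCon cells, and 0.19, 0.11 and -0.05 for shFoxO1 under olaparib.

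Of redox genes, AKR1C1, an aldo-keto reductase, was at 9.76, 23.9 and 59.0 FPKM in shCon cells in DMSO, shCon cells under olaparib and shFoxO1 cells under olaparib, and thioredoxin reductase TXNRD1 at 204, 304 and 63.1 FPKM. The autophagy factor GABARAPL1 was at 10.1, 4.31 and 57.5 FPKM, while the lysosomal regulators TFEB and TFE3 ended lower, at 17.5, 12.2 and 5.81 FPKM and at 57.4, 30.5 and 17.0 FPKM. Complement factor B (CFB) was at 15.1, 3.66 and 84.1 FPKM. IGFBP6, which binds IGF2, was at 262, 82.5 and 938 FPKM, and the pappalysin inhibitor STC2 at 125, 27.8 and 16.6 FPKM. Tissue inhibitor TIMP1 was at 397, 183 and 1075 FPKM and the gelatinase MMP2 at 92.8, 43.4 and 31.8 FPKM.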
